A study of Mus musculus with 14 samples.

Results

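Foamy macrophage marker genes are 10 genes that mark the lipid-laden, TREM2-positive macrophages of atherosclerotic plaques: Trem2, Gpnmb, Spp1, Lgals3, Cd9, Cd68, Fabp5, Cd63, Cd5l and Lyz2. They were taken by symbol from the 22430 genes of the authors' count table, all 10 were found, and all 10 were among the 14269 genes with enough counts to be tested. RNA was sequenced from the inner layer of the thoracic aorta, lysed by running QIAzol through the vessel, and each of the 14 libraries was made from a pool of 12 to 14 mice of 1 genotype. All groups lacked apolipoprotein E (Apoe-/-), which makes mice prone to atherosclerosis. The labels give no age, sex, diet or single animals.

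The wild-type control was Apoe-/-Lmna+/+ (4 pools). The ubiquitous progerin group was Apoe-/-LmnaG609G/G609G (3 pools), in which the changed Lmna gene yields progerin, a shortened lamin A that causes Hutchinson-Gilford progeria, in all cells. The lamin C-only control was Apoe-/-LmnaLCS/LCS (4 pools), whose Lmna alleles yield lamin C and no lamin A. The VSMC progerin group was Apoe-/-LmnaLCS/LCS SM22Cre (3 pools), in which Cre driven by the SM22α promoter turns on progerin in vascular smooth muscle cells (VSMC), while cells without active Cre keep the lamin C-only allele. Each progerin group was set against its own control, and the controls against each other.

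Foam cells arise when macrophages in the vessel wall take up modified lipoprotein faster than they can hydrolyse and export its cholesterol. TREM2 is a lipid-sensing receptor of such cells, which signals through the adaptor TYROBP. The transcript set that goes with it also holds lysosomal, lipid-binding and secreted proteins, and several of those are made by other cells too. Cd68 and Lyz2 are broad macrophage genes, while Cd9, Cd63 and Fabp5 are also known from endothelium and many other cell types.

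RefSeq promoter windows of GRCm38.p6, the 250 bases before a start site, were matched for 9 of the 10 genes, and Fabp5 had no entry. Those of Trem2, Cd68 and Gpnmb are shown because Cd68 was the nearest gene to Trem2, and Trem2 to Gpnmb, in their profile over the libraries, and that of Cd5l because its pattern departed from them. Each is read 5′ to 3′ on the gene's strand, with capitals for a match to the PU.1 motif GAGGAAG (or CTTCCTC, its reverse complement) or the AP-1 motif TGANTCA.
Trem2 (chr17:48346151-48346400, plus strand): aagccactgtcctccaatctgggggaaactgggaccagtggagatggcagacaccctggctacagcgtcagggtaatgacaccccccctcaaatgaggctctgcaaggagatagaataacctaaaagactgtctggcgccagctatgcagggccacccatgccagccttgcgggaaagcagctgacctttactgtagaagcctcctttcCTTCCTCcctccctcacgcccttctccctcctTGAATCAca
Cd68 (chr11:69666171-69666420, minus strand): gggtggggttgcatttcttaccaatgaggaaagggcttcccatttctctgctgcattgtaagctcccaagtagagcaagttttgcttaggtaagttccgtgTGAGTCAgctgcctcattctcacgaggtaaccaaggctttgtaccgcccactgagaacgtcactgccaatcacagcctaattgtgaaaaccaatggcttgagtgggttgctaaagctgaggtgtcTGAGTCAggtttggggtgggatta
Gpnmb (chr6:49036268-49036517, plus strand): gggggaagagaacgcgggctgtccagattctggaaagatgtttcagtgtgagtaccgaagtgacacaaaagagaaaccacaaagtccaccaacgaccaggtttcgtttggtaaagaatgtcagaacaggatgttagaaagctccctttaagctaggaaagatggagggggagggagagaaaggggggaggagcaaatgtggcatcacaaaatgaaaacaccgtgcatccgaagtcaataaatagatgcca
Cd5l (chr3:87357631-87357880, plus strand): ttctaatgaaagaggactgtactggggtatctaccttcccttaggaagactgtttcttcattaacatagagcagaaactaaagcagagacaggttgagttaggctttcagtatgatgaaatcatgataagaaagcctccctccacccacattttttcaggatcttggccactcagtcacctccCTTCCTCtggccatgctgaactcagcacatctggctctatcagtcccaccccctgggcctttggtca

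PU.1 is the lineage factor of macrophages, and AP-1 is the Fos and Jun family. GAGGAAG on either strand was found in the windows of 4 of the 9 genes (Trem2, Spp1, Cd63 and Cd5l), and in those of 10.4% of 27025 promoters with 1 per gene. The RefSeq start site of Cd63 lay 8356 bases past the start of the gene span given below, and that of Lgals3 6109 bases past it, so these windows lie inside the spans. A second RefSeq start site of Spp1, 1074 bases past its gene start, had a window without a match. TGANTCA was found before 2 of the 9 (Trem2 and, at 2 places, Cd68), and before 6.87% of all. Neither CACGTG, bound by TFEB and MITF, nor the MITF motif TCATGTG was found before any of the 9, against 6.05% and 3.22% of all promoters. No motif overlapped another in the windows shown. A match describes letters and not binding, and the absence of a match covers these windows only.

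Levels are CPM, counts per 1000000 counts of a library, scaled by edgeR's trimmed mean of M-values (TMM). Library totals ran from 27169784 to 35692385 estimated counts. Lmna ran from 113 to 125 CPM (wild-type control), 115 to 121 (ubiquitous progerin), 126 to 142 (lamin C-only control) and 207 to 256 (VSMC progerin), and a count per gene does not separate progerin from lamin A. Apoe counts remained in all libraries (44.5 to 72.1 CPM), so they do not check the deletion. Endothelial markers summed to 20914 to 25188 CPM over all libraries, so the endothelium of the labelled layer was present in each. Wild-type pool 1 stood apart on the third principal component (-64.96, against -7.75 to 14.45 for the other 13), and VSMC progerin pool 3 held 8560 CPM of red cell genes, against 124 to 586 in the others. Mitochondrial transcripts took 7.29 to 8.22% of counts with ubiquitous progerin against 4.603 to 5.42% in its control, and 11.5 to 12.1% with VSMC progerin against 3.53 to 4.61%, and their part in the results was not tested.

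**Figure D1:**
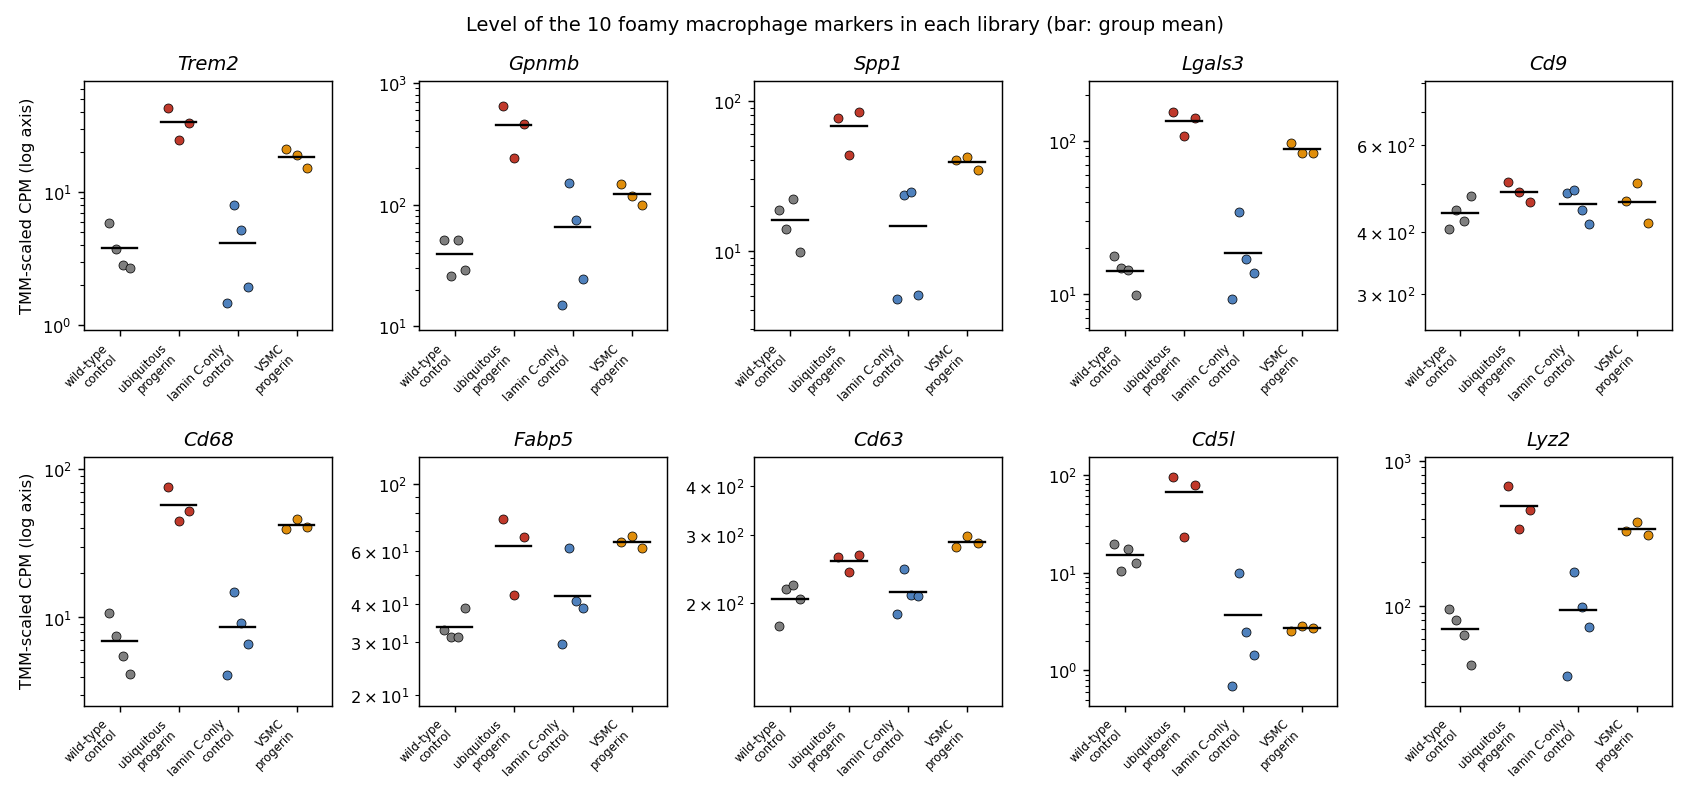
TMM-scaled CPM of each of the 10 genes (log axis, 1 panel per gene) in the 14 pools, with 1 point per pool and a bar at the group mean. Trem2, Lgals3, Cd68 and Lyz2 sit higher in both progerin groups than in their controls, Cd9 lies between 405 and 504 CPM everywhere, and Cd5l is high in ubiquitous progerin but between 2.50 and 2.87 CPM in VSMC progerin.

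The first comparison, of ubiquitous progerin mice with their wild-type controls, concerns progerin made by all cells. The foam cell genes rose nearly as a block: 9 of the 10 were higher by edgeR's quasi-likelihood test (adjusted p under 0.05 by Benjamini-Hochberg over all genes tested) and 0 were lower. Gpnmb, Lgals3, Trem2 and Cd68 were each 8.32 to 11.5 times higher, Lyz2 6.97 times, Cd5l and Spp1 a little over 4 times, and Fabp5 and Cd63 less than 2 times. Cd9 did not pass. Among all 14269 genes 54.6% were called in either direction and 26.3% were called higher. The median log2 change of the 10 genes was 2.47, and that of all genes was -0.005.

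Trem2 (ENSMUSG00000023992, chromosome 17, 48346401 to 48354147), the lipid receptor, was at 5.88, 3.78, 2.86 and 2.699 CPM in wild-type pools 1 to 4 and at 42.8, 24.7 and 32.9 CPM in ubiquitous progerin pools 1 to 3. The lowest progerin pool was above every control pool. The log2 change was 3.14 ± 0.51 (SE), with an adjusted p of 0.000315 by edgeR.

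Cd68 (ENSMUSG00000018774, chromosome 11, 69664213 to 69666153), a lysosomal glycoprotein of macrophages, stood at 10.7, 7.46, 5.47 and 4.16 CPM in the controls and at 75.6, 44.7 and 52.5 CPM with progerin. Its log2 change was 3.06 ± 0.41 (adjusted p = 8.16e-05 by edgeR). Lyz2 (ENSMUSG00000069516, chromosome 10, 117277331 to 117282321), the lysozyme of macrophages and neutrophils, went from 96.2, 80.1, 63.6 and 39.7 CPM to 665, 339 and 457 CPM, a log2 change of 2.80 ± 0.49. For both genes the groups did not overlap. Lyz2 has a close copy, Lyz1, and the authors' counting divided reads between them in 14 of 14 libraries. In these estimates Lyz1 held 0.688 to 8.3% of their joint count.

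Gpnmb (ENSMUSG00000029816, chromosome 6, 49036546 to 49070929), a transmembrane glycoprotein of lipid-loaded lysosomes, had the largest estimated change of the 10 and also the largest SE. The wild-type pools gave 51.6, 26.0, 51.4 and 28.8 CPM, and the ubiquitous progerin pools 648, 244 and 463 CPM. The groups did not overlap, although pool 1 was 2.66 times pool 2 within ubiquitous progerin. The log2 change was 3.52 ± 0.71 (adjusted p = 0.00168 by edgeR).

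Lgals3 (ENSMUSG00000050335, chromosome 14, 47367751 to 47386160), the lectin galectin-3, was at 17.8, 14.9, 14.4 and 9.87 CPM in the controls and at 154, 108 and 141 CPM with progerin. It had the smallest SE among the genes with a log2 change over 2, at 3.24 ± 0.37 (adjusted p = 2.57e-05 by edgeR). Spp1 (ENSMUSG00000029304, chromosome 5, 104435118 to 104441050), the secreted matrix protein osteopontin, was at 18.6, 13.9, 22.2 and 9.75 CPM and then at 76.8, 43.6 and 84.5 CPM. Its log2 change was 2.09 ± 0.56 (adjusted p = 0.00906). Neither gene had overlapping groups.

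Fabp5 (ENSMUSG00000027533, chromosome 3, 10012548 to 10016607), a cytosolic fatty acid carrier, ran from 31.2 to 38.7 CPM in the controls and from 42.7 to 76.7 CPM with progerin, a log2 change of 0.89 ± 0.24. Cd63 (ENSMUSG00000025351, chromosome 10, 128900989 to 128912822), a tetraspanin of lysosomes and exosomes, ran from 175 to 222 CPM and from 241 to 266 CPM, a log2 change of 0.33 ± 0.08. Both passed (adjusted p = 0.00796 and 0.00253 by edgeR) with groups that did not overlap. Cd9 (ENSMUSG00000030342, chromosome 6, 125460266 to 125494791), a tetraspanin of the plasma membrane, was at 405, 443, 420 and 473 CPM in the controls and at 504, 482 and 459 CPM with progerin. Its groups overlapped, and the log2 change of 0.15 ± 0.07 missed the threshold (adjusted p = 0.0925). It passed with DESeq2's size factors (0.0434), in DESeq2 (0.0306) and without wild-type pool 4 (0.039).

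Cd5l (ENSMUSG00000015854, chromosome 3, 87357881 to 87371073), a secreted scavenger receptor protein that restrains macrophage death, was at 19.6, 10.3, 17.5 and 12.6 CPM in the controls and at 95.4, 23.1 and 79.3 CPM with progerin. Pool 2 was far below the other 2 progerin pools and only just above the highest control. The log2 change was 2.14 ± 0.66 (adjusted p = 0.0189 by edgeR). That call ended without wild-type pool 2 (adjusted p = 0.0503), without ubiquitous progerin pool 1 (0.0807) or pool 3 (0.0586), and when pool numbers were blocked (0.0834).

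Over the 10 genes, 9 had groups that did not overlap, all higher, against 28.2% of all genes tested. Ubiquitous progerin pool 2 was the lowest of its group for 9 of the 10 (pool 3 for Cd9), and pool 1 the highest for 8. The count of 9 did not change without wild-type pool 1, the library that stood apart. In bulk RNA, more cells of a type and more RNA per cell cannot be told apart, here or in the results that follow.

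The other lists put these changes in their setting. Of 14 general macrophage genes 13 rose, with Itgam, a leukocyte integrin, at 4.90 ± 0.21, Csf1r, the CSF1 receptor, at 3.86 ± 0.19, and Cd14, an endotoxin co-receptor, at 2.11 ± 0.12 (log2 change ± SE). Their summed level was 185 to 231 CPM in the wild-type control and 1178 to 1699 CPM in ubiquitous progerin. Mertk, the efferocytosis receptor and the only 1 of the 14 not called, was at -0.18 ± 0.11.

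Of 12 genes of TREM2 signalling and shedding, 9 rose and 3 fell, with a median log2 change of 3.10. Pik3cd, a leukocyte PI3 kinase subunit, rose by 2.95 ± 0.16. Tyrobp, the adaptor, chosen after its values were seen, averaged 4.61 ± 1.86 CPM in the control (SD, n = 4) and 59.5 ± 11.1 CPM with progerin (n = 3), and its log2 change was 3.70 ± 0.38 (adjusted p = 8.34e-06 by edgeR). Plcg2, the phospholipase that TREM2 signals through, fell by 1.34 ± 0.07 on the log2 scale, and Adam10, a protease that sheds TREM2, fell by 0.92 ± 0.07. Both are known from cells other than macrophages.

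Among 20 other genes of lipid-associated macrophages, 16 rose and 1 fell (median 0.76), and a further listed gene, Clec7a, was not used here. Lpl, lipoprotein lipase, rose by 1.96 ± 0.14 and Creg1, a lysosomal glycoprotein, by 0.75 ± 0.08, while Nupr1, a stress-response factor, fell by 1.64 ± 0.13. Of 15 genes of lipid uptake, cholesterol efflux and lysosomal control, 10 rose and 2 fell (median 0.71). Msr1, a scavenger receptor for modified lipoprotein, rose by 4.19 ± 0.29. The cholesterol exporters Abcg1 and Abca1 rose by 0.73 ± 0.07 and 0.71 ± 0.08.

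**Figure D2:**
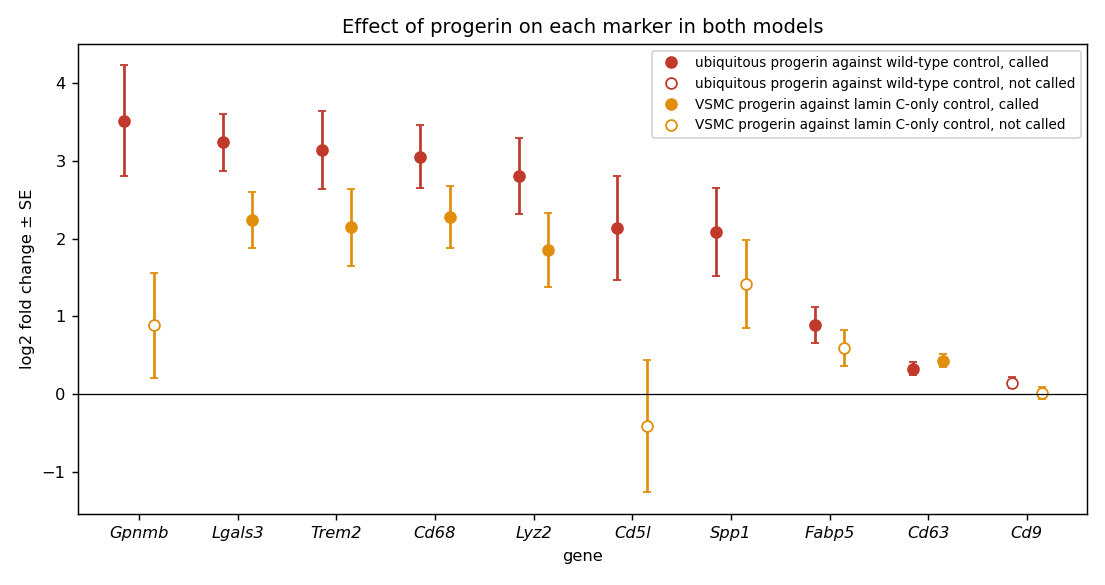
Log2 fold change ± SE of each gene in ubiquitous progerin against the wild-type control (red) and in VSMC progerin against the lamin C-only control (orange), with filled points for genes called by edgeR and open points for genes not called. The red points lie above 0 for all 10 genes with Cd9 open, and the orange points are filled for Lgals3, Trem2, Cd68, Lyz2 and Cd63, while Cd5l lies below 0 with an SE that crosses it.

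The second comparison, of VSMC progerin mice with lamin C-only controls, concerns progerin made in smooth muscle cells. The foam cell genes rose in part: 5 of the 10 were higher by edgeR (Trem2, Lgals3, Cd68, Lyz2 and Cd63) and 0 were lower. Cd68, Lgals3 and Trem2 were each 4.43 to 4.86 times higher and Lyz2 3.62 times. Gpnmb, Spp1, Fabp5, Cd9 and Cd5l did not pass, and 7 of the 10 had an unadjusted p under 0.05, a share not given here for all genes. Among all genes 42.0% were called in either direction and 19.0% were called higher. The median log2 change was 1.15 for the 10 genes and -0.03 for all genes.

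For Trem2 the lamin C-only pools 1 to 4 gave 1.48, 8.08, 5.21 and 1.93 CPM and the VSMC progerin pools 1 to 3 gave 21.2, 18.9 and 15.2 CPM. The progerin pools lay close together and above the control pools, which spread 5.46-fold. The log2 change was 2.15 ± 0.50 (adjusted p = 0.00526 by edgeR). Lgals3 was at 9.39, 34.4, 17.1 and 13.7 CPM in the controls and 97.2, 83.9 and 83.4 CPM with progerin, a log2 change of 2.25 ± 0.36 (adjusted p = 0.000512).

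Cd68 was at 4.08, 14.7, 9.24 and 6.59 CPM in the controls and 39.3, 46.2 and 40.5 CPM in VSMC progerin, a log2 change of 2.28 ± 0.40 (adjusted p = 0.000892 by edgeR). Lyz2 was at 33.3, 171, 98.9 and 72.1 CPM and then at 329, 380 and 308 CPM, a log2 change of 1.85 ± 0.48 (adjusted p = 0.0098). Cd63 ran from 188 to 245 CPM in the controls and from 279 to 297 CPM with progerin, a log2 change of 0.43 ± 0.08 (adjusted p = 0.000318). None of these 3 had overlapping groups.

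The genes that did not pass fell into different kinds. Gpnmb was at 14.9, 151, 74.0 and 24.2 CPM in the lamin C-only pools and at 148, 118 and 99.7 CPM in VSMC progerin. Control pool 2 was above all 3 progerin pools, and the log2 change was 0.89 ± 0.68 (adjusted p = 0.327 by edgeR). Without that pool the change was 1.69 (adjusted p = 0.0507), and without pool 1 it was 0.56 (0.516). Spp1 was at 4.75, 23.5, 24.7 and 5.06 CPM and at 40.1, 41.9 and 34.3 CPM, so its groups did not overlap, yet the change of 1.42 ± 0.56 missed the threshold (adjusted p = 0.0669). Fabp5 was at 29.6, 61.4, 40.9 and 38.8 CPM and at 64.2, 67.1 and 61.3 CPM, a change of 0.59 ± 0.23 (adjusted p = 0.0649). For Fabp5 the highest control and the lowest progerin pool overlapped by less than 1 CPM. By limma-voom all 3 passed (adjusted p = 0.0293, 0.00184 and 0.00796), and by DESeq2 Spp1 and Fabp5 did (0.031 and 0.0267).

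Cd9 was at 479, 485, 444 and 414 CPM in the lamin C-only control and at 462, 501 and 417 CPM in VSMC progerin, with overlapping groups and a log2 change of 0.01 ± 0.07 (-0.0627 when scaled by library totals only). Cd5l was at 0.698, 10.01, 2.49 and 1.44 CPM in the controls and at 2.50, 2.87 and 2.74 CPM with progerin. The progerin pools lay inside the control range, and the log2 change was -0.41 ± 0.85 (adjusted p = 0.733 by edgeR). Its sign turned without lamin C-only pool 2 (0.801), with limma-voom (0.314) and with the deposited log2 values (0.281). The lowest of these values rested on 25 counts.

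In all, 6 of the 10 genes had groups that did not overlap, all higher, against 20.7% of all genes tested. Lamin C-only pool 2 was the highest of its group for 9 of the 10 genes (pool 3 for Spp1) and pool 1 the lowest for 9 (pool 4 for Cd9). Pool 2 was 14.3 times pool 1 for Cd5l, 10.1 times for Gpnmb, 5.46 times for Trem2 and 1.01 times for Cd9. Without pool 2, Spp1 and Fabp5 also passed (adjusted p = 0.0466 and 0.00434), which made 7, and without pool 3 Spp1 passed (0.0383). The count stayed at 5 without VSMC progerin pool 3, the library rich in red cell genes, which was also the lowest of its group for 7 of the 10.

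Of the 14 general macrophage genes 13 rose and 1, Mertk, fell (by 0.56 ± 0.11 on the log2 scale). Their summed level was 197 to 262 CPM in the lamin C-only control and 817 to 905 CPM in VSMC progerin. Itgam rose by 3.67 ± 0.20, Csf1r by 3.21 ± 0.18 and Ptprc, the leukocyte phosphatase CD45, by 2.94 ± 0.19. Of the 12 genes of TREM2 signalling and shedding 10 rose and 0 fell (median 2.30), among them the phosphatase Ptpn6 at 3.11 ± 0.23, the kinase Syk at 2.79 ± 0.23 and Pik3cd at 2.44 ± 0.16. Tyrobp, chosen after its values were seen, averaged 6.18 ± 3.27 CPM in the control (SD, n = 4) and 43.8 ± 0.32 CPM with progerin (n = 3), and its log2 change was 2.84 ± 0.36.

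Of the 20 other lipid-associated macrophage genes 16 rose and 0 fell (median 0.71), with Lpl at 1.94 ± 0.14, Lgals1, the lectin galectin-1, at 1.47 ± 0.12 and Cstb, a cathepsin inhibitor, at 0.72 ± 0.07. Of the 15 genes of lipid uptake, efflux and lysosomal control 5 rose and 1 fell (median 0.36). Msr1 rose by 3.28 ± 0.28, Abcg1 by 0.63 ± 0.07 and Nr1h3, the sterol-sensing factor LXR alpha, by 0.80 ± 0.12. Abca1 was at 0.18 ± 0.08 and did not pass.

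Markers of other cells are set beside all genes tested. Of those, 54.6% were called in either direction in ubiquitous progerin (26.3% higher) and 42.0% in VSMC progerin (19.0% higher). Red cell markers were called higher for 5 of 5 tested in VSMC progerin, but their summed level set only pool 3 apart (8560 CPM): pools 1 and 2 were at 465 and 571 CPM, inside the 312 to 586 CPM of the control. In ubiquitous progerin 0 of 5 were called. Adipocyte markers rose for 5 of 6 in VSMC progerin (1 of 6 in ubiquitous progerin), and fibroblast markers for 5 of 8, with 0 lower (1 higher and 2 lower of 8). Adipocyte markers summed to 498 to 615 CPM in VSMC progerin against 50.4 to 338 in its control, and to 115 to 276 in ubiquitous progerin against 60.1 to 89.6. Fibroblast markers summed to 1614 to 1817 CPM in VSMC progerin against 560 to 878, and to 510 to 582 in ubiquitous progerin against 591 to 689. Smooth muscle markers summed to 348 to 417 CPM in VSMC progerin against 461 to 624 (0 higher and 4 lower of 8), and to 1006 to 1049 in ubiquitous progerin against 539 to 890 (2 higher and 3 lower). Most of the ubiquitous progerin sum was Tagln, which averaged 774 CPM there and 258 in the wild-type control. Acta2 averaged 92.6 CPM in ubiquitous progerin and 213 in the wild-type control, so the sum does not describe the list. Endothelial markers were called 2 higher and 6 lower of 10 in ubiquitous progerin and 5 higher and 4 lower in VSMC progerin.

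Other immune lists are set beside the shares of all genes called in either direction, 54.6% in ubiquitous progerin and 42.0% in VSMC progerin. Resident macrophage markers were called 5 higher and 3 lower of 10 in ubiquitous progerin and 7 higher and 2 lower in VSMC progerin, and inflammatory macrophage genes 3 and 6 higher of 7, with 0 lower. Monocyte and neutrophil markers were called 7 higher and 1 lower of 8 tested in ubiquitous progerin and 5 higher and 0 lower in VSMC progerin, at a summed level of 28.7 to 36.9 and 40.01 to 41.7 CPM. Dendritic cell markers were called 1 higher and 1 lower of 4 tested, then 2 higher and 0 lower, and lymphocyte markers 2 higher and 1 lower of 7 tested, then 3 higher and 0 lower. For these last lists few genes were tested, and the share called in either direction did not stand out from that of all genes. The part of these other cells in the foam gene results was not tested.

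The 2 progerin effects, which share no library, were then compared with each other by testing their difference. Of the 10 genes 0 differed by edgeR, against 44.2% of all genes called in either direction and 22.4% called higher in ubiquitous progerin. An unadjusted p under 0.05 was reached by 2, Gpnmb and Cd5l, and the share of all genes that reached it is not given here. The ubiquitous effect was the larger estimate for 9 of the 10, Cd63 being the exception at -0.10 ± 0.12, and the median difference was 0.86 against 0.002 for all genes.

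The log2 difference for Gpnmb was 2.63 ± 0.98 (edgeR, adjusted p = 0.0508) and for Cd5l 2.55 ± 1.08 (adjusted p = 0.08). Both were called by DESeq2 (adjusted p = 0.0123 and 0.0365), without lamin C-only pool 1 (0.0175 and 0.0408) and without ubiquitous progerin pool 2 (0.0463 and 0.0418). Gpnmb alone was called without lamin C-only pool 4 (0.0324) and by limma-voom (0.0277). Without lamin C-only pool 2 the differences were smaller, at 1.83 for Gpnmb (0.0971) and 1.34 for Cd5l (0.235). By limma-voom they were 2.06 and 1.66, the latter with an adjusted p of 0.34. Over all alternatives the adjusted p ran from 0.0123 to 0.117 for Gpnmb and from 0.0365 to 0.34 for Cd5l. Trem2, Lgals3 and Lyz2 had estimated differences of 1.00 ± 0.71, 0.99 ± 0.51 and 0.95 ± 0.68, and Cd68 of 0.77 ± 0.57. These are too wide to tell equal effects from a ubiquitous effect that is several times the other.

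The lamin C-only control was compared with the wild-type control to ask whether the loss of lamin A alone moved the genes. By edgeR 0 of the 10 were called (and 0 by DESeq2 and 0 by limma-voom), beside 0.175% of all genes called in either direction and 0.0911% called higher. The median log2 change was 0.23, and 9 of the 10 had an adjusted p between 0.811 and 0.987. Cd5l was the 1 gene with an unadjusted p under 0.05 (0.0145, adjusted p = 0.51), at -2.05 ± 0.70. The change was -3.27 without lamin C-only pool 2 (adjusted p = 0.128) and -2.72 by limma-voom (0.434). Its wild-type pools (10.3 to 19.6 CPM) all lay above its lamin C-only pools (0.698 to 10.01 CPM), though only narrowly. Without lamin C-only pool 2 the uncalled changes of Trem2, Gpnmb, Lgals3, Cd68, Cd63 and Lyz2 turned from positive to negative. None of the other 14 lists had a called gene. Since this comparison shares its libraries with the other 2, it is not independent of them.

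Across the 4 groups, the order of mean levels was ubiquitous progerin, VSMC progerin, then both controls for Trem2, Gpnmb, Spp1, Lgals3, Cd68 and Lyz2, and for Cd9. The top 2 groups did not overlap for Trem2, Gpnmb, Spp1 and Lgals3, and overlapped for Cd68, Lyz2 and Cd9. For Fabp5 and Cd63 the VSMC progerin mean was the highest, at 64.2 ± 2.9 against 62.0 ± 17.4 CPM and 287 ± 9.4 against 257 ± 13.4 CPM (SD, n = 3), and the 2 groups overlapped for Fabp5 only. The controls overlapped for 9 of the 10 genes. Between the progerin groups and between the controls, the share of all genes without overlap was not counted, so these overlaps are a description only. Cd5l was ordered otherwise: ubiquitous progerin (65.9 ± 38.0 CPM), wild-type control (14.996 ± 4.28), lamin C-only control (3.66 ± 4.30) and VSMC progerin (2.702 ± 0.19). Only its last 2 groups overlapped.

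Per kilobase of exon, Cd9 was the most abundant of the 10 in both controls (213 ± 14.5 and 223 ± 16.1 CPM per kilobase, SD, n = 4). Lyz2 led in both progerin groups, at 370.0 ± 125 and 258 ± 28.1 CPM per kilobase (n = 3). Trem2 was the least abundant in 3 groups, at 0.770 ± 0.30, 6.77 ± 1.83 and 0.844 ± 0.62 CPM per kilobase in the groups of wild-type control, ubiquitous progerin and lamin C-only control mice. In VSMC progerin that place went to Cd5l, at 1.33 ± 0.09. Length here is the union of exons over all annotated transcripts (4946 bases for Trem2, 2036 for Cd5l), which can exceed that of the transcripts made. Some ranks depend on it. By mean CPM alone, Cd5l was below Trem2 in the lamin C-only control (3.66 against 4.17). Likewise Cd9 was above Lyz2 in VSMC progerin (460 against 339).

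The level of each gene was then set against the mean log2 CPM of the 14 general macrophage genes in the same library, as a description. That mean (log2, ± SD) was 2.45 ± 0.31 for the wild-type control and 2.69 ± 0.26 for the lamin C-only control, and 5.87 ± 0.29 and 5.48 ± 0.10 with ubiquitous and VSMC progerin. Cd68 stayed within 0.28 of it on average in all 4 groups (0.27, -0.06, 0.28 and -0.09 with wild-type Lmna, ubiquitous progerin, lamin C only and VSMC progerin), and Lgals3 stayed 0.98 to 1.37 above it. Single pools spread more in the lamin C-only control, from -0.32 to 0.92 for Cd68 (SD 0.58) and from 0.87 to 2.14 for Lgals3 (SD 0.59). Trem2 was 0.57, 0.84, 0.93 and 1.28 below it, in the same order of groups.

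Gpnmb was 2.78 ± 0.53, 2.84 ± 0.51 and 2.80 ± 1.35 above the macrophage mean in the first 3 groups and 1.43 ± 0.19 above it in VSMC progerin. The VSMC progerin pools (1.27 to 1.65) lay below the wild-type (2.12 to 3.42) and ubiquitous progerin pools (2.25 to 3.14), and overlapped the lamin C-only pools (1.53 to 4.27). Spp1 was 1.50 ± 0.48 above the mean in the wild-type control and 0.16 ± 0.46 above it in ubiquitous progerin, with no overlap. Cd5l was 1.42 ± 0.45 above the mean in the wild-type control and 0.07 ± 0.94 below it in ubiquitous progerin. It was 1.47 ± 1.38 below the mean in the lamin C-only control and 4.01 ± 0.17 below it in VSMC progerin, where all 3 pools (-4.20 to -3.88) lay under every other library.

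On this scale Cd9, Cd63 and Fabp5 were lower in both progerin groups than in their controls, as Cd5l and Spp1 also were on average. Trem2, Lgals3, Cd68 and Lyz2 were lower on average too, by smaller amounts, and only Gpnmb was not lower in ubiquitous progerin. Lyz2 was 3.61 and 3.63 above the macrophage mean in the wild-type and lamin C-only controls, and 3 and 2.92 above it in ubiquitous and VSMC progerin. Its ubiquitous progerin pools (2.725 to 3.176) lay below the wild-type pools (3.183 to 3.779), while its VSMC progerin pools overlapped their controls. Cd9 was 6.32 and 6.14 above the macrophage mean in the controls and 3.04 and 3.36 above it in ubiquitous and VSMC progerin, since its own level hardly moved while the macrophage mean was higher. Cd63 went from 5.23 and 5.04 to 2.13 and 2.69, and Fabp5 from 2.62 and 2.68 to 0.04 and 0.52. So in this tissue the transcript of Cd9 did not track macrophage genes, and the name of the gene group does not describe it here. Those of Cd63 and Fabp5 also changed far less than the macrophage mean, and that of Cd5l did not rise with it in VSMC progerin.

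**Figure D3:**
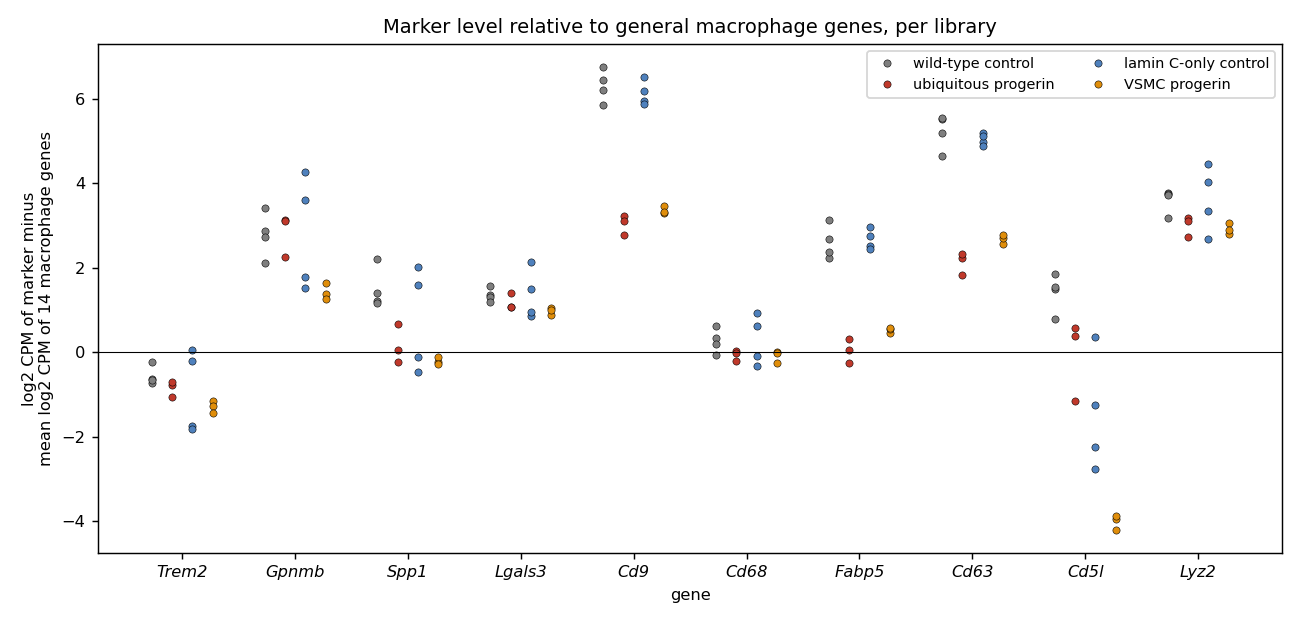
Log2 CPM of each gene minus the mean log2 CPM of 14 general macrophage genes in the same library, 1 point per pool and 1 colour per group, with a line at 0. The group means of Cd68 and Lgals3 keep nearly the same offset, with lamin C-only pools spread from -0.32 to 0.92 and from 0.87 to 2.14, Cd9, Cd63 and Fabp5 drop in both progerin groups, and Cd5l drops to between -4.20 and -3.88 in VSMC progerin.

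Profiles over the 14 libraries, each centred on its mean, were compared by their root mean square difference in log2 units among the 10507 genes that averaged 2 or more in log2 CPM. Nearest to Trem2 were Cd68 (0.313), Lgals3 (0.324) and Lyz2 (0.358), all of them in the set, where the profile of Trem2 itself had an SD of 1.53. Nearest to Gpnmb were Trem2 (0.52), Cd84 (0.55), a leukocyte surface receptor, and Spp1 (0.596). Nearest to Spp1 were Trem2 (0.558), Slc37a2 (0.574), a sugar phosphate transporter, and Lyz2 (0.576). Cd9, with an SD of 0.102, was nearest to Cacul1 (0.0604), Gnai2 (0.0621) and S100a16 (0.0671), and no gene of the set was among its 3 nearest. For Cd5l (SD 2.02) the nearest were Ciart (1.24), Glis3 (1.28) and Cbs (1.3), farther than for the other 4 genes given here. These distances are not scaled by a gene's own SD, which was the largest for Cd5l and the smallest for Cd9. They therefore cannot rank how well genes are matched, and a flat profile such as that of Cd9 can only lie near other flat ones.

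**Figure D4:**
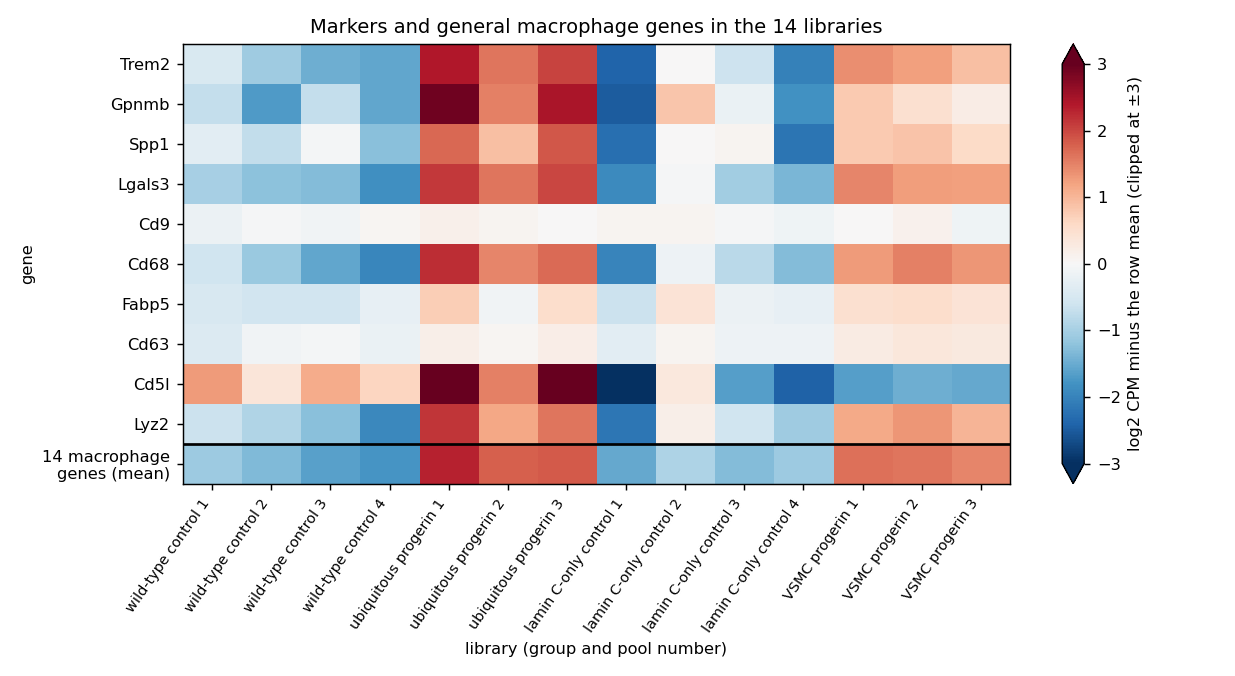
Log2 CPM of the 10 genes in each of the 14 libraries minus the gene's mean over the libraries (colour, clipped at ±3), with the mean of 14 general macrophage genes in the bottom row. Ubiquitous progerin pools are red and control pools mostly blue for Trem2, Gpnmb, Spp1, Lgals3, Cd68 and Lyz2, lamin C-only pool 1 is blue for all but Cd9, the row of Cd9 is almost white, and that of Cd5l is blue in VSMC progerin.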

How the data were processed

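RNA from 14 pools of mouse aortic intima was sequenced as poly(A)-selected, directional libraries from 100 ng of total RNA. The authors deposited RSEM expected counts, which need not be whole (12.7% of entries were not), and log2 values for 13034 genes, which equal log2 CPM up to 1 constant per library (-0.0551 to 0.0719, largest departure 1.8e-15) and served as an alternative. The submitters' processing notes name GRCm38, STAR 2.7.10b, RSEM 1.2.28, limma (no version), cutadapt 4.1 and Trim Galore 0.6.10. Annotation release, strand setting and gene filter were not given in the sources used here.

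Libraries were grouped by genotype label. Expected counts were rounded, filtered with filterByExpr by group (minimum count 10, total 15, share 0.7), scaled by TMM and tested with edgeR 4.0.16 (R 4.3.3) by the quasi-likelihood test, fitting the 14 libraries together with 1 coefficient for each group. P-values were adjusted by Benjamini-Hochberg over 14269 genes, and calls needed an adjusted p under 0.05 but no minimum fold. The common dispersion was 0.0187. SE is the absolute log2 fold change over the square root of F. The replicate is the pool, so p-values do not reflect the spread between mice. Log2 CPM used a prior count of 2. The filter passes a gene on its higher group, and all 10 genes passed. Positions and exon lengths came from GENCODE M21 on GRCm38 and span whole genes, all protein coding.

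The 10 genes and 14 comparison lists were chosen with earlier results of these data known, so their direction is not independent evidence. Named genes were the 10, Lmna and Apoe as label checks, up to 3 called genes per list and progerin comparison with the smallest p, and the 3 nearest profiles. Fewer are named. Alternatives were other scalings, DESeq2 1.42.0, limma-voom (limma 3.58.1), the deposited log2 values, other filters, the compared groups only, blocked pool numbers, a log2 fold minimum of 1, each pool left out and, chosen after seeing the data, Lyz1 and Lyz2 summed. The steps were tested on simulated counts, all drawn at the common dispersion of 0.0187. Several of the 10 genes spread more widely between pools, so that run does not measure power or error for them. The 10 pairs of same-numbered pools in compared groups had deviations that correlated at -0.0461 to 0.0227, so the numbers were not taken as pairs.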

Additional observations from a re-analysis of the deposited data

Results flagged for a closer look

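None of the 10 foam cell genes met a criterion for a closer look: in 20 checks of a gene in a 4-pool control group none had a pool beyond Dixon's critical value of 0.829, and 0 differed between the progerin effects by edgeR. Among the genes of 4 related lists named in the text, 10 others did, because the effect of ubiquitous progerin minus that of VSMC progerin passed the test of the difference, as did 44.2% of all genes tested. In full, those lists had 5 of 12, 7 of 20, 6 of 15 and 7 of 14 such genes, in the order below. Of the genes of TREM2 signalling and shedding these were Plcg2 (log2 difference -1.57, edgeR adjusted p = 3.37e-10) and Adam10 (-1.05). Of the other lipid-associated macrophage genes they were Nupr1 (-2.38), Creg1 (0.81), Lgals1 (-0.85) and Cstb (-0.34). Of the lipid handling genes they were Abca1 (0.54) and Nr1h3 (-0.52), and of the general macrophage genes Itgam (1.24) and Cd14 (0.94).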

How the results depend on the processing

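Of the 10 genes, 9 were called in ubiquitous progerin, 5 in VSMC progerin, 0 between the controls and 0 in the difference of the effects. In VSMC progerin limma-voom called 8, adding Gpnmb, Spp1 and Fabp5, while DESeq2 and the deposited log2 values with limma each called 7, adding Spp1 and Fabp5. With a log2 fold minimum of 1, 7 genes were called in ubiquitous progerin (without Fabp5 and Cd63) and 4 in VSMC progerin (without Cd63). The shares of all genes given above belong to the main test and not to the alternatives in this section. The difference had 1 call with library totals only, 1 with limma-voom and 1 with a filter of over 1 CPM in 3 libraries (Gpnmb each time), and 2 with DESeq2 (Gpnmb and Cd5l). Leaving out 1 pool gave 8 to 10 calls in ubiquitous progerin, 5 to 7 in VSMC progerin, 0 to 0 between the controls and 0 to 2 in the difference. Cd9 passed in ubiquitous progerin with DESeq2 size factors (adjusted p = 0.0434), with DESeq2 (0.0306) and without wild-type pool 4 (0.039). With pool numbers as a replicate block, 8 genes were called in ubiquitous progerin (Cd5l was lost), 5 in VSMC progerin, 0 between the controls and 0 in the difference; 2 of the 10 same-numbered pairs correlated best with their own number. Summing Lyz1 and Lyz2 changed none of these counts, and scaling by library totals moved none of the 40 group levels by over 1 SD.

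Only changes that were not called turned their sign, and the cause was not tested. In VSMC progerin these were Cd9 (-0.0627 with library totals only, -0.0280 without lamin C-only pool 4, -0.0535 without VSMC progerin pool 2) and Cd5l (0.314 with limma-voom, 0.281 with the deposited log2 values, 0.801 without lamin C-only pool 2). Between the controls, Trem2 was at -0.121 with limma-voom and -0.128 with the deposited values. Without lamin C-only pool 2 it was at -0.390, Gpnmb at -0.0598, Lgals3 at -0.0838, Cd68 at -0.0594, Cd63 at -0.0161 and Lyz2 at -0.0364. Spp1 was at 0.147 without lamin C-only pool 1, 0.134 without pool 4 and 0.0491 without wild-type pool 3, and Cd63 at -0.0116 without wild-type pool 1. With 1 pool left out, those uncalled changes that turned ranged up to 0.0784 (Cd9) and down to -0.766 (Cd5l) in VSMC progerin, and between the controls from the values above up to 0.420 (Trem2), 1.07 (Gpnmb), 0.610 (Lgals3), 0.5999 (Cd68), 0.113 (Cd63) and 0.706 (Lyz2) or down to -0.541 (Spp1). Depth limits Cd5l most, with 25 counts in its lowest library.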
